A study of Homo sapiens with 26 samples.

Results

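The genes described here are amino acid supply and tRNA charging genes, many of them known targets of ATF4, together with ATF4 itself. All 17 listed cytosolic synthetases are included, whether or not they are established targets. They were chosen by symbol from a list of 41 genes: 7 of serine and one-carbon metabolism, 7 of other amino acid synthesis and carbon supply, 8 amino acid transporters, the transcription factors ATF4 and CEBPB, and the cytosolic aminoacyl-tRNA synthetases. Of these, 39 were measured among 18417 genes, each on the array feature with the highest mean and exactly 1 symbol. CBS was not used because its feature names 2 symbols, and GPT2 was not used because no feature carried its symbol alone.

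Transcript levels came from 26 Affymetrix Human Gene 1.0 ST arrays of NCCIT, a human embryonal carcinoma cell line that expresses pluripotency genes. All cells were transfected with siRNA. The depletion groups received siRNA against DNMT1, which copies DNA methylation after replication (siDNMT1), against DNMT3A (siDNMT3A) or DNMT3B (siDNMT3B), which methylate unmodified DNA, or against their cofactor DNMT3L (siDNMT3L), against DNMT1 with DNMT3A (siD1+3A), with DNMT3B (siD1+3B) or with both (siD1+3A+3B), and against DNMT3A with DNMT3B (3A+3B), DNMT3A with DNMT3L (3A+3L), DNMT3B with DNMT3L (3B+3L) or all DNMT3 genes (3A+3B+3L). The control groups siNTC-2 and siNTC-1 received control siRNA, and no label ties a depletion to either of them. There were 13 groups of 2 arrays, and nothing in the labels shows that the 2 arrays of a group were separate cultures. The p-values therefore rest on a spread between duplicates that may be technical. The sources used here give neither sampling time nor siRNA amount.

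ATF4 is a transcription factor whose protein is made when eIF2 is phosphorylated by stress kinases, among them GCN2, which senses uncharged tRNA. Its control is largely translational, so its mRNA and its activity need not move together. Its targets let a cell make, import and load amino acids: serine synthesis and folate enzymes, asparagine synthetase, exchangers such as xCT, and many cytosolic tRNA synthetases. Many of these genes carry a C/EBP-ATF composite element, bound by ATF4 with a C/EBP partner, near the start site. The same factor also drives a stress arm that includes CHAC1, TRIB3 and DDIT3.

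Values are deposited log2 expression, and differences are log2 differences with their standard error, the group named first minus the group named second. A gene is called where limma's moderated test gave a Benjamini-Hochberg adjusted p under 0.05 among 18417 genes. Duplicate arrays correlated at 0.9973 to 0.9989 across genes. Each targeted mRNA was lower than in siNTC-1 in the groups that received its siRNA. DNMT1 stood at 37.4% to 54.1% of siNTC-1, DNMT3A at 58.0% to 68.0%, DNMT3B at 50.3% to 80.3% and DNMT3L at 69.0% to 80.5%. Of siNTC-2 they stood at 41.2% to 59.5%, 67.0% to 78.5%, 62.3% to 99.4% and 68.3% to 79.7%. siNTC-2 itself was lower than siNTC-1 for DNMT1 (90.9%), DNMT3A (86.6%) and DNMT3B (80.7%). DNMT3L was also lower in siDNMT1, which received no DNMT3L siRNA (75.6% of siNTC-1 and 74.8% of siNTC-2), and stood at 80.5% of siNTC-1 in siDNMT3B, so its range is not particular to the groups given its siRNA. Against siNTC-2, DNMT3B was called lower in 5 of 6 groups, and 3A+3B+3L, at 99.4%, was the exception. The 7 measured embryonal carcinoma markers had values of 9.09 to 12.45, whereas fibroblast markers lay at 4.04 to 6.42, blood markers at 3.87 to 4.67 and endoderm markers at 4.08 to 5.73. DNMT3L, at 5.36 to 6.2 over all arrays, lay within the range of the fibroblast markers, so its falls are those of a weak signal.

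The 2 control groups were not alike. Over 18288 genes outside the lists used here, siNTC-2 and siNTC-1 lay 0.344 apart (root mean square log2 difference). By the same measure siDNMT1, siDNMT3B and siDNMT3L lay nearer siNTC-1, at 0.2 to 0.225, than siNTC-2, at 0.344 to 0.355. The other 8 depletions lay nearer siNTC-2, at 0.152 to 0.225, than siNTC-1, at 0.29 to 0.371. No label names a batch, so whatever separates these sides and the depletions cannot be told apart in comparisons across them. Every depletion is therefore given against each control, and a gene is said to lie beyond both controls where it was called in the same direction against each. Comparisons between depletions on 1 side take no difference from a control group, although their variance comes from the fit to all 13 groups.

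Amino acid supply genes varied more among the groups than most genes. All 39 passed the moderated F test for any difference among the 13 groups, against 65.3% of all genes. The distance from the lowest to the highest group mean had a median of 0.92 over these genes and 0.41 over all genes. In 18 of 39 (46.2%) it reached 1 log2 unit, as it did in 1032 of 18417 genes (5.604%). The list was chosen with earlier results of these data known, so these shares are no test of it. Expression level was not matched between all genes and these genes, most of which were brighter than the median gene. The range was widest in other amino acid synthesis, with a median of 1.72, and in transporters, with 1.40. It was 1.02 in serine and one-carbon genes and 0.54 in tRNA synthetases. The highest group mean was in 3B+3L for 16 genes and in siNTC-2 for 15, and the lowest was in siDNMT1 for 17, siDNMT3B for 8, and siDNMT3L and siNTC-2 for 4 each.

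**Figure D1:**
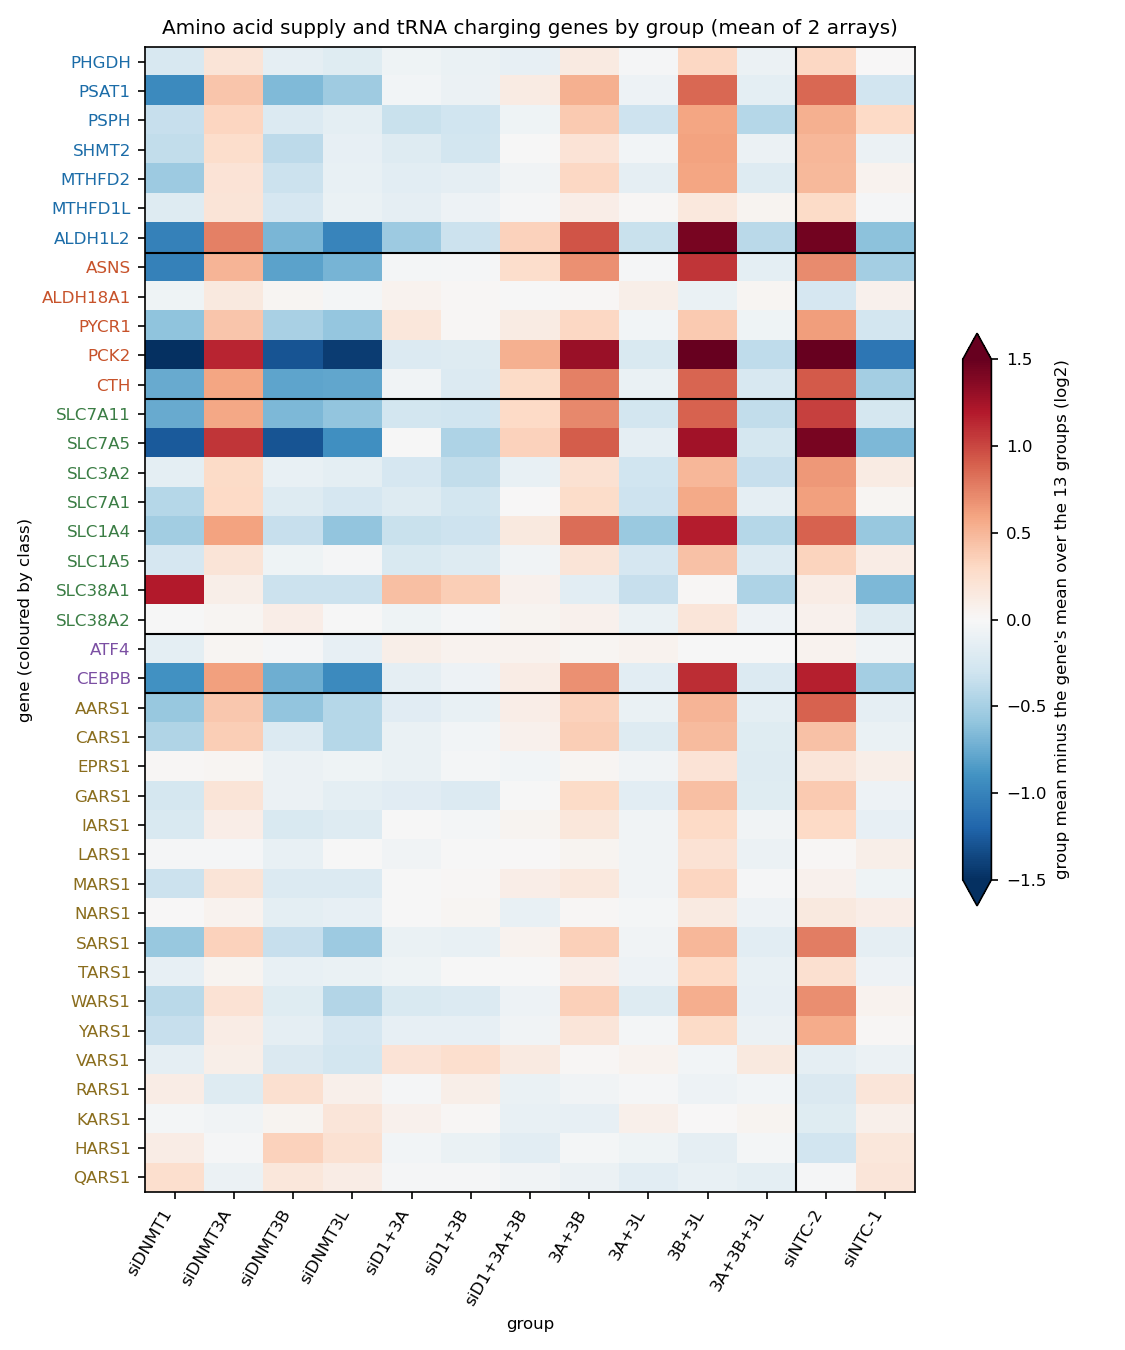
Group means of the 39 genes (rows, coloured by class) in the 11 depletions, siNTC-2 and siNTC-1 (columns, 2 arrays each), as the log2 distance from each gene's mean over the 13 groups, with colour limits at 1.5. Most rows are red in siDNMT3A, 3A+3B, 3B+3L and siNTC-2 and blue in siDNMT1, siDNMT3B and siDNMT3L, whereas ATF4 is pale throughout and SLC38A1 is reddest in siDNMT1.

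On the feature used here, ATF4 mRNA was the flattest row of the set, with a range of 0.24 among group means. Its values were 10.60 and 10.69 in siDNMT1, 10.66 and 10.69 in siDNMT3L, 10.81 and 10.78 in 3B+3L, 10.83 and 10.85 in siNTC-2, and 10.70 and 10.77 in siNTC-1. On this feature the groups with the highest target levels therefore had ATF4 mRNA within 0.10 of siNTC-1. ATF4 was not called in siNTC-2 against siNTC-1 (0.10 ± 0.05, adjusted p = 0.0942), but was called there without the dimmest genes, after quantile normalization and with a trended prior (adjusted p = 0.0499, 0.0229 and 0.0396). Its second array feature differed the other way in that comparison, by -0.22, so the direction for ATF4 depends on the feature. Against siNTC-2 ATF4 was lower in siDNMT1 (-0.19 ± 0.05) and siDNMT3L (-0.17 ± 0.05), which turned to 0.06 and 0.08 with the mean of both features. It lay beyond both controls in 0 of 11 depletions.

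CEBPB, which encodes the transcription factor C/EBPβ, moved far more. Its values were 7.99 and 8.20 in siDNMT1, 8.24 and 8.33 in siDNMT3B, 8.06 and 8.04 in siDNMT3L, 10.14 and 10.09 in 3B+3L, 10.17 and 10.17 in siNTC-2, and 8.46 and 8.53 in siNTC-1. The siNTC-2 and 3B+3L arrays stood apart from the others by more than any duplicate pair differed.

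PCK2, the mitochondrial phosphoenolpyruvate carboxykinase, had the widest range of the set, 3.63 between 3B+3L and siDNMT1. Its values were 5.87 and 5.53 in siDNMT1, 6.11 and 6.11 in siDNMT3B, 5.91 and 6.04 in siDNMT3L, 8.53 and 8.54 in siDNMT3A, 9.40 and 9.25 in 3B+3L, 8.99 and 8.99 in siNTC-2, and 6.33 and 6.32 in siNTC-1. All arrays of siDNMT3A, 3A+3B, 3B+3L and siNTC-2 were at 8.53 or above, and all of siDNMT1, siDNMT3B and siDNMT3L were at 6.11 or below. ASNS, asparagine synthetase, had 9.28 and 9.09 in siDNMT1, 10.74 and 10.68 in siDNMT3A, 11.25 and 11.31 in 3B+3L, 10.92 and 10.90 in siNTC-2, and 9.83 and 9.55 in siNTC-1. As for PCK2, 3B+3L had the highest and siDNMT1 the lowest group mean.

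**Figure D2:**
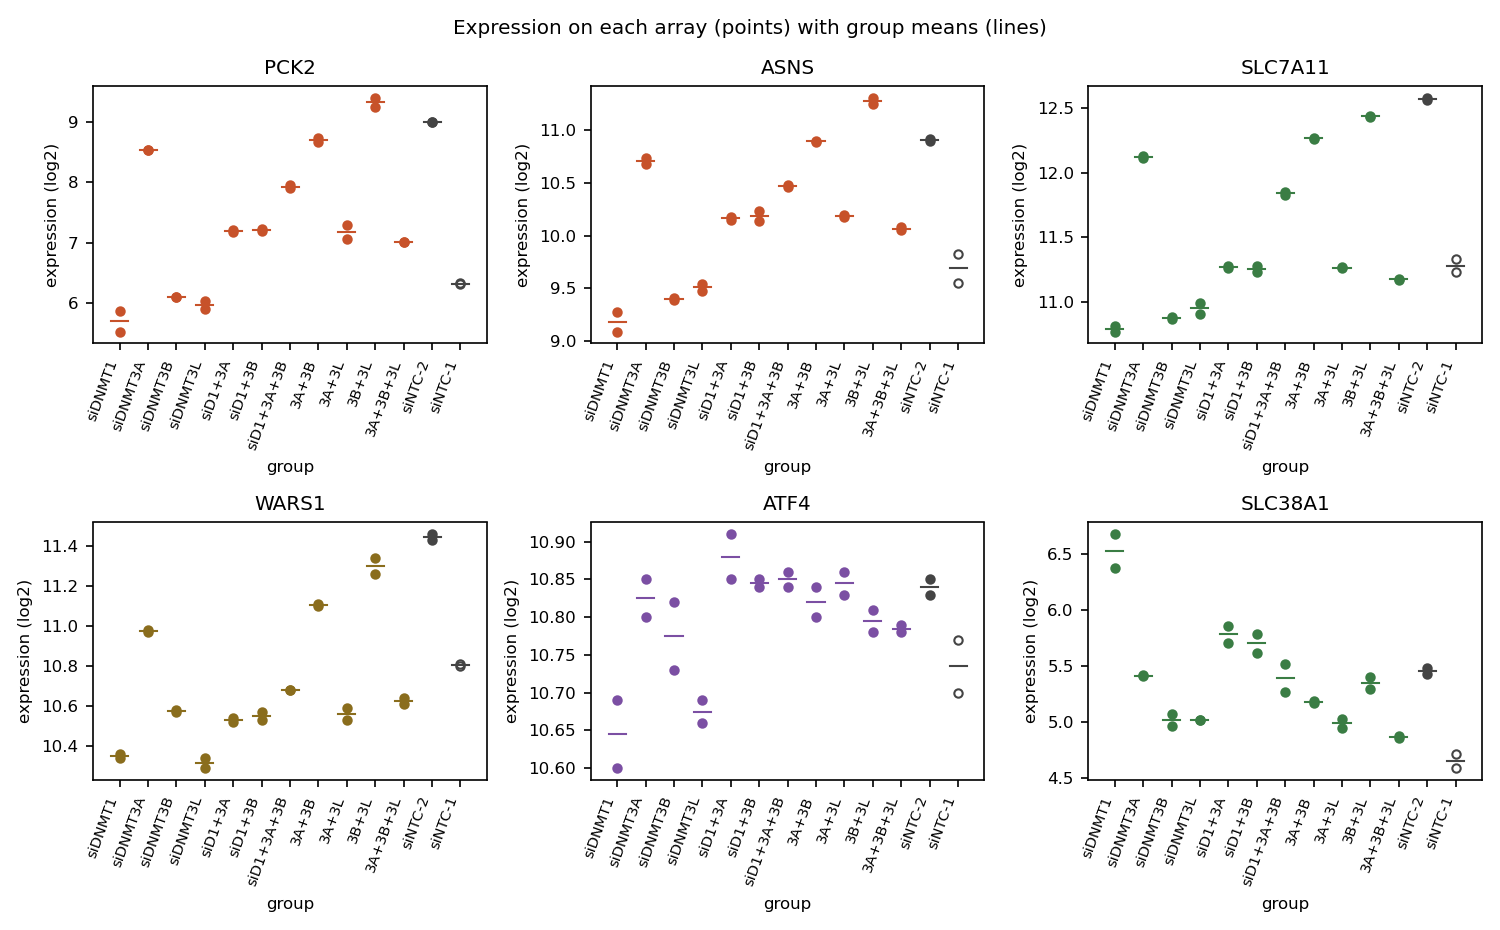
Deposited log2 expression (vertical axis) on each array (points) with group means (lines) for PCK2, ASNS, SLC7A11, WARS1, ATF4 and SLC38A1 in the 11 depletions, siNTC-2 and siNTC-1 (horizontal axis). Vertical scales differ between panels: PCK2 spans 5.53 to 9.40, ATF4 only 10.60 to 10.91. SLC38A1 is highest in siDNMT1, where PCK2 is lowest.

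The start-site regions of these genes were searched for the core of the composite element, TGATGNAA, on both strands, in RefSeq windows of 250 bases before to 50 after the start site (build GRCh38.p14). A window was available for 31 of the 39 genes, and 14 of them (45.2%) held at least 1 match, against 1217 of 27305 genes (4.46%). By window the shares were 16 of 48 (33.3%) and 1270 of 35116 (3.62%). Many of these genes were listed as known ATF4 targets, so the comparison is no test of the list. ASNS and AARS1, which encodes alanyl-tRNA synthetase, are shown over the 250 bases before the start site because ASNS is a much-studied ATF4 target and AARS1 is the synthetase that differed most between the controls. Both genes are on the minus strand and are printed on their own strand, 5′ to 3′, with the match in capitals. The ASNS stretch lies at chr7:97872409-97872658 and the AARS1 stretch at chr16:70289507-70289756.
ASNS: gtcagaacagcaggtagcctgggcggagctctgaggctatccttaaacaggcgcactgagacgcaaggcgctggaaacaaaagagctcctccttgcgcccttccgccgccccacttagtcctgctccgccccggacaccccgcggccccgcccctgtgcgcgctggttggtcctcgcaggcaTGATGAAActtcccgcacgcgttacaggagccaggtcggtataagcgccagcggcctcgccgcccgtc
AARS1: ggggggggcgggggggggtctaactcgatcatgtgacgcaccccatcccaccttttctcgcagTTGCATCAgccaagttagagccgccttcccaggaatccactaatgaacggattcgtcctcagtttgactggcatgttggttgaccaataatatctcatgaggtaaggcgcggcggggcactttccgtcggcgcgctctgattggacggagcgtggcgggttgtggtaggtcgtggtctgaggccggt

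The other 12 matches are shown as 30-base stretches on the gene's strand, transporters first, to let the letters and their strand be compared. A stretch that reads TGATGNAA has the core on the gene's strand, and one that reads TTNCATCA has it on the opposite strand.
SLC3A2 (chr11:62881719-62881748, plus strand): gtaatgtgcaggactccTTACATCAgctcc
SLC7A1 (chr13:29595663-29595692, minus strand): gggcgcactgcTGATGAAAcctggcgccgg
SLC1A4 (chr2:64989381-64989410, plus strand): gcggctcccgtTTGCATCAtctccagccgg
SLC1A5 (chr19:46784893-46784922, minus strand): gaggaagtggcTGATGCAAgctgtccaggg
SLC38A1 (chr12:46266502-46266531, minus strand): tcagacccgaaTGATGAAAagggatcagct
MTHFD1L (chr6:150866346-150866375, plus strand): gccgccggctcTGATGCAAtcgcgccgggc
CARS1 (chr11:3057407-3057436, minus strand): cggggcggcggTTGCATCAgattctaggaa
GARS1 (chr7:30594834-30594863, plus strand): ttacgcggcgaTTTCATCAtgctccgagcc
IARS1 (chr9:92293692-92293721, minus strand): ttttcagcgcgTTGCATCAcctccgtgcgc
MARS1 (chr12:57488053-57488082, plus strand): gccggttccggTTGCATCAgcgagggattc
NARS1 (chr18:57621804-57621833, minus strand): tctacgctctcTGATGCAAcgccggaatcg
TARS1 (chr5:33440956-33440985, plus strand): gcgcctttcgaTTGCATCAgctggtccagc

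Matches were unevenly spread over the classes. They were found in 5 of 7 transporters with a window and 7 of 14 synthetases, in 1 of 4 serine and one-carbon genes and 1 of 4 genes of other synthesis, and in neither ATF4 nor CEBPB. Among synthetases with a window, 6 of the 8 that were higher in siNTC-2 than in siNTC-1 held a match and 0 of the 4 that were lower did. Of the 2 not called, 1 held a match (NARS1). SARS1 and WARS1, with rises of 0.90 and 0.64, had no match, whereas MARS1, with 0.12, had a match. These are few genes, and a link between matches and direction was not tested. PCK2, PSAT1 and SLC7A5, among the genes that differed most between the controls, had no match in these windows. A match is a description of letters, not of binding.

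siNTC-2 was set against siNTC-1 first, because both received control siRNA. Most supply genes were higher in siNTC-2, whereas synthetases split: 29 of 39 were higher and 5 lower, against 24.2% higher and 20.5% lower of all genes (44.7% together), with a median difference of 0.47 over the set and -0.02 over all genes. PCK2 rose by 2.67 ± 0.09, SLC7A5, the large neutral amino acid transporter, by 2.10 ± 0.07, and ALDH1L2, a mitochondrial folate enzyme, by 2.07 ± 0.07 (adjusted p = 1.99e-13, 1.85e-13 and 2.93e-13). CEBPB rose by 1.68 ± 0.06 and SLC1A4, a neutral amino acid transporter, by 1.45 ± 0.10. The 2 arrays of siNTC-2 did not overlap the 2 of siNTC-1 in 37 of 39 genes, as in 68.2% of all genes.

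Serine and one-carbon genes were higher in 7 of 7. PSAT1, the serine synthesis aminotransferase, had 12.45 and 12.43 in siNTC-2 and 11.22 and 11.35 in siNTC-1, a rise of 1.15 ± 0.05. PHGDH, which commits 3-phosphoglycerate to serine, rose by 0.31 ± 0.05, with 12.73 and 12.77 in siNTC-2 and 12.46 and 12.43 in siNTC-1. The pathway's last enzyme, PSPH, differed least (0.23 ± 0.07), and that call was lost without siNTC-1 replicate 2 (0.18) and with the mean of its 2 features (0.12). MTHFD1L (0.30 ± 0.08) was not called without siNTC-1 replicate 1 (0.15). Among other synthesis genes, CTH, which makes cysteine from cystathionine, rose by 1.43 ± 0.06, ASNS by 1.21 ± 0.07 and PYCR1, the last enzyme of proline synthesis, by 0.90 ± 0.08. ALDH18A1, the first enzyme of the same proline pathway, was lower in siNTC-2 (-0.32 ± 0.05).

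Transporters were higher in 8 of 8. SLC7A11, the cystine importer xCT, had 12.58 and 12.56 in siNTC-2 and 11.23 and 11.33 in siNTC-1, a rise of 1.29 ± 0.05. Its partner chain SLC3A2, which also carries SLC7A5 to the membrane, rose by 0.53 ± 0.06. The glutamine transporter SLC1A5 differed by 0.22 ± 0.06, which was not called without siNTC-2 replicate 2 (0.19) and turned to -0.03 with the mean of its 2 features.

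Cytosolic synthetases divided by amino acid. AARS1 for alanine rose by 1.02 ± 0.05, SARS1 for serine by 0.90 ± 0.05, WARS1 for tryptophan by 0.64 ± 0.04, YARS1 for tyrosine and CARS1 for cysteine by 0.54 each, and GARS1 for glycine by 0.47 ± 0.04. In the opposite direction stood HARS1 for histidine at -0.45 ± 0.05, RARS1 for arginine at -0.40 ± 0.05, KARS1 for lysine at -0.25 ± 0.05 and QARS1 for glutamine at -0.21 ± 0.05. In all, 9 of 17 were higher and 4 lower, with a median of 0.12, and EPRS1, NARS1, VARS1 and LARS1 were not called (0.10, 0.04, -0.04 and -0.09).

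**Figure D3:**
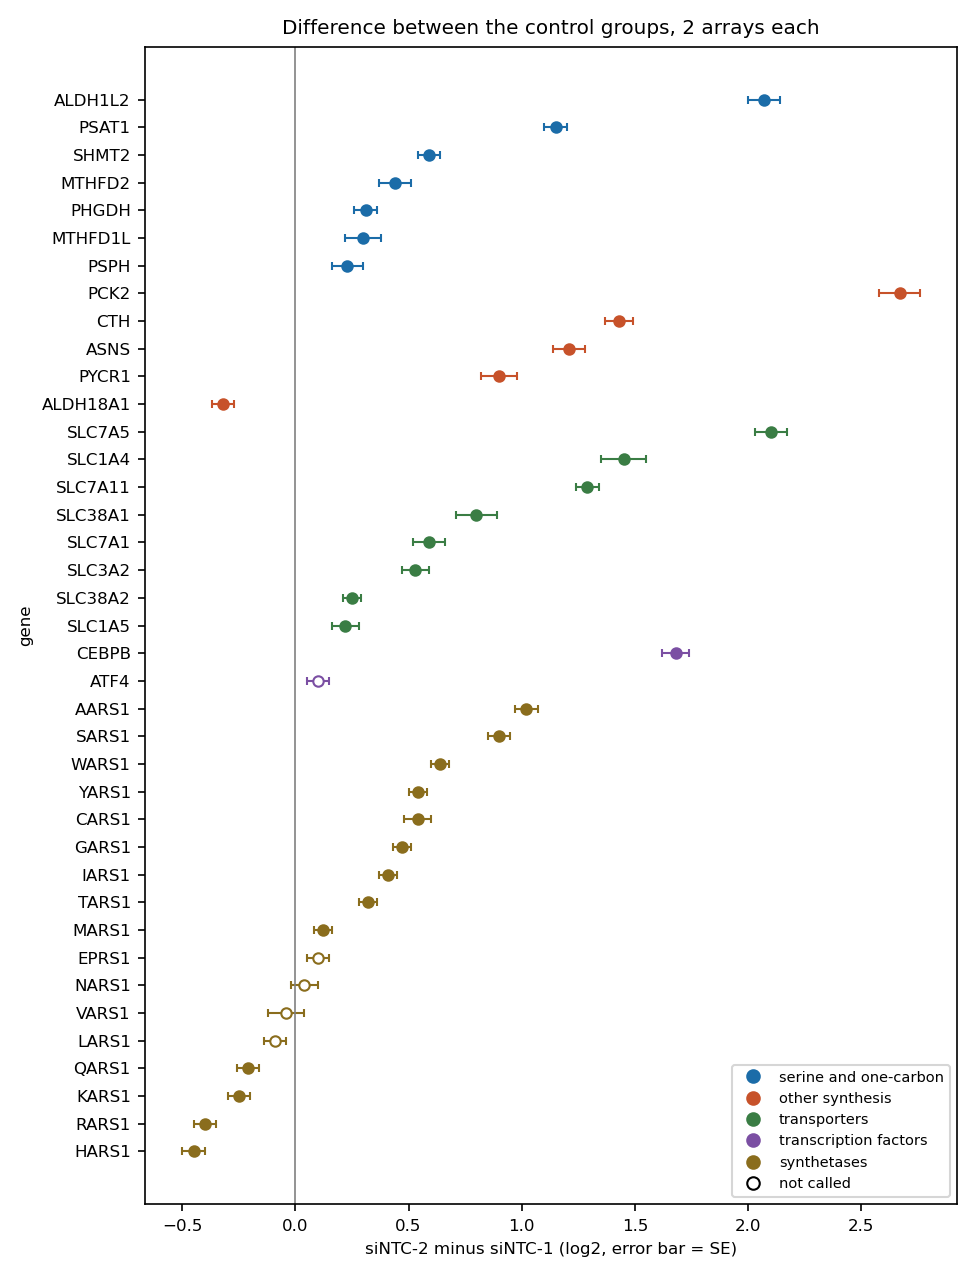
siNTC-2 minus siNTC-1 (horizontal axis, log2, bars give the standard error, 2 arrays each) for the 39 genes, grouped by class on the vertical axis. Filled points were called. PCK2 lies farthest right at 2.67 and HARS1 farthest left at -0.45, and 4 of the 5 genes on the called negative side are synthetases.

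Neighbouring pathway genes did not move as a block. In the same comparison 24.2% of all genes were higher and 20.5% lower (44.7% together). The stress arm was higher in siNTC-2 in 15 of 16 genes and lower in none, with a median of 1.59, and CHAC1, a glutathione-degrading enzyme, rose by 3.53 ± 0.12. Mitochondrial synthetases were higher in 6 and lower in 8 of 16, with CARS2 at -0.73 ± 0.06. The eIF2 kinases, eIF2 and eIF2B subunits were higher in 5 and lower in 2 of 13, and GCN2 (EIF2AK4) rose by 0.40 ± 0.05. These 7 calls of 13 are near the share of all genes and are no result about that list. Of 19 other amino acid and one-carbon genes, 8 were higher, led by the glycine transporter SLC6A9 (1.68 ± 0.08), and 6 lower, led by MTHFD1 (-0.65 ± 0.06). The cytosolic folate enzyme MTHFD1 thus differed the other way from its mitochondrial counterparts MTHFD2 (0.44 ± 0.07) and MTHFD1L (0.30 ± 0.08). The MTHFD1L call was lost without siNTC-1 replicate 1. Of 3 other cytosolic synthetase genes, FARSA was lower (-0.29 ± 0.07) and AIMP1 higher (0.17 ± 0.06).

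Cells depleted of DNMT1 alone had lower levels of most supply genes than either control. Their group mean was below both control means for 31 of 39 genes, against 33.2% of all genes. Against siNTC-1, on whose side they lay, 23 of 39 genes were lower and 2 higher (10.6% and 9.26% of all genes, 19.8% together), with a median of -0.27 over the set and -0.03 over all genes. The 23 genes were also lower than siNTC-2, so 23 lay below both controls, against 5.26% of all genes. PSAT1 fell to 10.63 and 10.64 in siDNMT1, against 11.22 and 11.35 in siNTC-1 (-0.65 ± 0.05, adjusted p = 3.83e-08). PSPH (-0.64 ± 0.07), PCK2 (-0.62 ± 0.09), MTHFD2 (-0.59 ± 0.07) and SLC7A5 (-0.58 ± 0.07) followed. SLC7A11 had 10.77 and 10.81 in siDNMT1 and 11.23 and 11.33 in siNTC-1 (-0.49 ± 0.05), WARS1 had 10.36 and 10.34 in siDNMT1 and 10.81 and 10.80 in siNTC-1 (-0.45 ± 0.04), and PHGDH had 12.19 and 12.20 in siDNMT1 and 12.46 and 12.43 in siNTC-1 (-0.25 ± 0.05). None of the synthetases that were lower in siNTC-2 was called in siDNMT1 against siNTC-1, with values of -0.10 to 0.06. When only these 2 groups entered the fit, 11 genes were called in place of 25.

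SLC38A1, a sodium-coupled glutamine transporter, was the exception in siDNMT1. Its values were 6.68 and 6.38 there, 5.43 and 5.48 in siNTC-2, and 4.59 and 4.72 in siNTC-1, so siDNMT1 was above siNTC-1 by 1.88 ± 0.09 and above siNTC-2 by 1.08 ± 0.09 (adjusted p = 3.13e-10 and 3.36e-08). It was the only one of the 39 genes beyond both controls on the high side in siDNMT1, where 4.02% of all genes were. siD1+3A and siD1+3B came next, with group means of 5.79 in siD1+3A and 5.71 in siD1+3B, though siD1+3B did not pass against siNTC-2 (0.25 ± 0.09, adjusted p = 0.0556) and siD1+3A (0.33 ± 0.09) did not without siNTC-2 replicate 1 (0.31) or siD1+3A replicate 2 (0.26). Its mean over the arrays, 5.34, was at percentile 33.0 of all genes, so it was left out where the 40% dimmest genes were.

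siDNMT3B and siDNMT3L cells also had lower supply gene levels than siNTC-1. In siDNMT3B 21 genes were lower than siNTC-1 and 3 higher (12.4% and 11.8% of all genes, 24.2% together), with a median of -0.17, and all 21 lay below both controls (6.39% of all genes). SLC7A5 fell to 7.91 and 7.99 in siDNMT3B, against 8.48 and 8.65 in siNTC-1 (-0.61 ± 0.07), followed by PSPH (-0.50 ± 0.07), AARS1 (-0.45 ± 0.05), SLC7A11 (-0.41 ± 0.05) and MTHFD2 (-0.37 ± 0.07). PSAT1 (-0.36 ± 0.05) and WARS1 (-0.23 ± 0.04) were also lower, and so was CEBPB (-0.21 ± 0.06), which was not called without siNTC-1 replicate 2 (-0.18) or siDNMT3B replicate 1 (-0.17). ASNS (-0.29 ± 0.07) was lower too, but not without siNTC-1 replicate 1 (-0.15). PCK2 (-0.22 ± 0.09), PHGDH (-0.13 ± 0.05) and ALDH1L2 (-0.07 ± 0.07) did not pass. HARS1, lower in siNTC-2, was highest here at 11.05 and 11.07, above siNTC-1 by 0.18 ± 0.05, a call lost without siNTC-1 replicate 2 (0.14) or siDNMT3B replicate 2 (0.17). With only these 2 groups in the fit 4 genes were called in place of 24.

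In siDNMT3L 20 genes were lower than siNTC-1 and 2 higher (9.86% and 9.32% of all genes, 19.2% together), with a median of -0.18, and 20 lay below both controls (5.45% of all genes). WARS1 had 10.34 and 10.29 in siDNMT3L and 10.81 and 10.80 in siNTC-1, a difference of -0.49 ± 0.04. CEBPB (-0.45 ± 0.06), PSPH (-0.44 ± 0.07), SARS1 (-0.41 ± 0.05) and ALDH1L2 (-0.37 ± 0.07) followed, and SLC7A11 (-0.33 ± 0.05) and PSAT1 (-0.24 ± 0.05) were lower as well. PCK2 (-0.35 ± 0.09) was not called without siDNMT3L replicate 1 (-0.28), SHMT2 stood at -0.03 ± 0.05, and ASNS at -0.18 ± 0.07 (adjusted p = 0.0913), which passed without siNTC-1 replicate 2 (-0.32). Without siDNMT3L replicate 2, 13 genes were called against siNTC-1 and 12 lay beyond both controls, and with only the 2 groups in the fit 4 were called. Against siNTC-2, 29 genes were lower and 6 higher in siDNMT1 (24% and 17.5% of all genes, 41.4% together), 31 and 5 in siDNMT3B (24.4% and 19.7%, 44.2% together) and 31 and 5 in siDNMT3L (24.7% and 19.7%, 44.4% together). Between siDNMT1, siDNMT3B and siDNMT3L the differences were not tested.

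**Figure D4:**
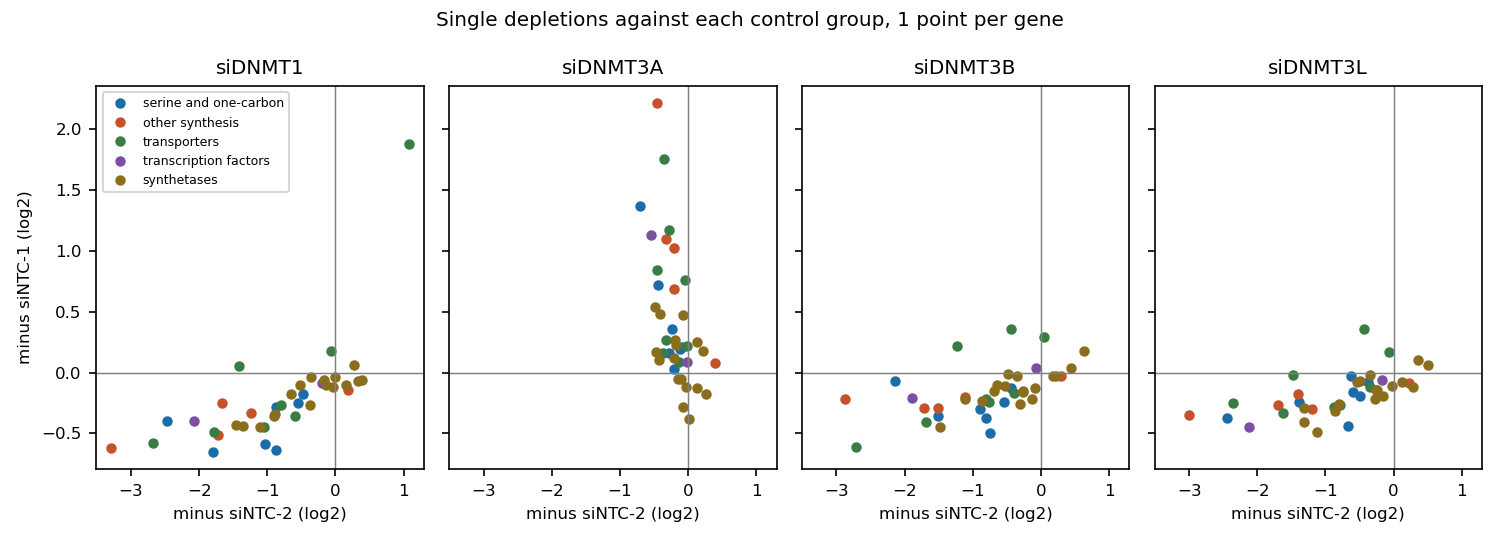
Log2 difference of each of the 39 genes (points, coloured by class) from siNTC-2 (horizontal axis) and from siNTC-1 (vertical axis) in the 4 single depletions, 2 arrays per group. In siDNMT1, siDNMT3B and siDNMT3L most points lie left of and below 0, in siDNMT3A most lie left of 0 and above it, and the point at 1.88 in siDNMT1 is SLC38A1.

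siDNMT3A stood between the controls in most supply genes. Its group mean lay between both control means for 32 of 39 genes, against 41.4% of all genes. Against siNTC-2, on whose side it lay, 20 genes were lower and 2 higher (7.36% and 8.44% of all genes, 15.8% together), with a median of -0.20. Against siNTC-1, 25 were higher and 4 lower (24.7% and 20.8%, 45.5% together). ALDH1L2 had 9.18 and 9.09 in siDNMT3A and 9.82 and 9.87 in siNTC-2 (-0.71 ± 0.07), followed by CEBPB (-0.54 ± 0.06), AARS1 (-0.48 ± 0.05), WARS1 (-0.47 ± 0.04) and SLC7A11 (-0.45 ± 0.05). ASNS (-0.20 ± 0.07, adjusted p = 0.078) and PHGDH (-0.12 ± 0.05) were not called against siNTC-2, and ALDH18A1 (0.40 ± 0.05) and HARS1 (0.26 ± 0.05) were higher. By limma no gene lay beyond both controls (0 of 39, and 2 at an unadjusted p under 0.05), against 4.38% higher and 2.42% lower of all genes.

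3A+3B and 3B+3L, both on the side of siNTC-2, had high supply gene levels, as siNTC-2 did. In 3A+3B 17 genes were lower and 3 higher than siNTC-2 (6.55% and 6.04% of all genes, 12.6% together), led by AARS1 (-0.54 ± 0.05), ALDH1L2 (-0.52 ± 0.07) and SLC7A5 (-0.52 ± 0.07), while ASNS differed by -0.01 ± 0.07. Against siNTC-1 24 were higher and 4 lower (23.6% and 20.6%, 44.2% together). By limma none lay beyond both controls (0 of 39, and 1 at an unadjusted p under 0.05; 2.95% higher and 2.04% lower of all genes).

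3B+3L was the closest to siNTC-2. Here 5 genes were higher and 4 lower than siNTC-2 (5.61% and 4.49% of all genes, 10.1% together), with a median of 0.02, whereas against siNTC-1 30 were higher and 4 lower (25.4% and 22.5%, 47.9% together). ASNS had 11.25 and 11.31 in 3B+3L and 10.92 and 10.90 in siNTC-2, a rise of 0.37 ± 0.07 (adjusted p = 0.00265), and MARS1, the methionyl-tRNA synthetase, rose by 0.26 ± 0.04. PCK2 (0.34 ± 0.09) was not called without either siNTC-2 array (0.34 each) or 3B+3L replicate 1 (0.27), and LARS1 (0.21 ± 0.05) not without siNTC-2 replicate 1 (0.18) or 3B+3L replicate 2 (0.19). These 4 genes lay above both controls (3.58% of all genes), 2 without siNTC-2 replicate 1 or 3B+3L replicate 1, and none lay below both (2.28% of all genes). AARS1 (-0.38 ± 0.05), SARS1 (-0.27 ± 0.05) and YARS1 (-0.25 ± 0.04) were lower than siNTC-2, so the synthetases moved both ways. Without siNTC-2 replicate 1, 5 genes were called against siNTC-2 in place of 9, with only the 2 groups in the fit 2, and without the dimmest genes 17.

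The other combinations, siD1+3A, siD1+3B, siD1+3A+3B, 3A+3L and 3A+3B+3L, had group means between the controls for 20 to 24 of 39 genes, below both for 12 to 18 and above both for 1 to 3. Of all genes 42.9% to 46.1% stood between, 28.9% to 32.2% below both and 24.4% to 26.6% above both. Against siNTC-2 between 27 and 30 genes were lower and 2 to 6 higher in each (10.8% to 13.3% and 7.74% to 12% of all genes), with medians of -0.43 to -0.59. Against siNTC-1 between 9 and 18 were higher and 9 to 12 lower (20.6% to 22.8% and 18.2% to 19.4%). In either direction 22.8% of all genes were called against siNTC-2 and 41.6% against siNTC-1 in siD1+3A, 25% and 39.5% for siD1+3B, 18.6% and 39.7% for siD1+3A+3B, 22.4% and 41% for 3A+3L, and 23.3% and 39.2% for 3A+3B+3L. PCK2 was above siNTC-1 in each, by 0.70 ± 0.09 in 3A+3B+3L to 1.61 ± 0.09 in siD1+3A+3B, and ASNS by 0.37 ± 0.07 to 0.78 ± 0.07 in the same groups. Both were below siNTC-2 in each, PCK2 by values of -1.06 to -1.97 and ASNS by -0.43 to -0.84.

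PSPH, SLC3A2 and WARS1 lay below both controls in 8 of 11 depletions, these 5 combinations among them. Every depletion was set against the same control arrays, so such counts over depletions are not of independent results. The share of all genes below both controls in as many depletions was not counted. PSPH is given on its brighter feature, with a mean of 9.25. Its other feature, with a mean of 9.14, did not differ between the controls (-0.0). PSPH had 8.92 and 8.91 in siD1+3A, 8.91 and 8.96 in 3A+3L, and 8.86 and 8.78 in 3A+3B+3L, against 9.76 and 9.79 in siNTC-2 and 9.60 and 9.48 in siNTC-1. The difference of PSPH from siNTC-1 was -0.36 ± 0.07 in siD1+3A+3B and -0.60 to -0.72 in the other combinations. Both serine pathway neighbours of PSPH took another course: PSAT1 was above siNTC-1 in all 5 (0.14 to 0.43) and PHGDH was called in none (-0.12 to -0.02). SLC3A2 stood at -0.23 to -0.49 against siNTC-1 in these 5 groups, whereas its partner SLC7A5 was above siNTC-1 in each (0.22 to 1.03). The SLC3A2 call in siD1+3A+3B was lost without siD1+3A+3B replicate 1 (-0.17).

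WARS1 had 10.68 and 10.68 in siD1+3A+3B, 10.54 and 10.52 in siD1+3A, 10.53 and 10.57 in siD1+3B, 10.53 and 10.59 in 3A+3L, and 10.61 and 10.64 in 3A+3B+3L, against 11.46 and 11.43 in siNTC-2 and 10.81 and 10.80 in siNTC-1. All 10 arrays were below all 4 control arrays. The smallest difference of WARS1 from siNTC-1, -0.13 ± 0.04 in siD1+3A+3B, was not called without any 1 of the 4 arrays compared (-0.13 to -0.12). SLC1A5 lay below both controls in 7 depletions. On the high side VARS1, for valine, lay above both controls in siD1+3A, siD1+3B, siD1+3A+3B and 3A+3B+3L, by 0.35 ± 0.08 over siNTC-1 in siD1+3B, and in the other 3 groups it was not called without siNTC-1 replicate 2 (0.14 to 0.21 over siNTC-1) or siNTC-2 replicate 1 (0.19 to 0.26 over siNTC-2).

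Beyond both controls there were 8 lower and 2 higher genes in siD1+3A (3.05% and 5.1% of all genes), 8 and 1 in siD1+3B (3.84% and 4.84%), 5 and 1 in siD1+3A+3B (3.05% and 2.96%), 6 and 0 in 3A+3L (3.29% and 4.32%), and 7 and 1 in 3A+3B+3L (3.41% and 4.2%). In siD1+3A+3B the count was 2 without siNTC-1 replicate 2 or either siD1+3A+3B array.

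Depletions on the side of siNTC-2 were then compared directly with each other, to ask what differed with 1 added siRNA. The variance still came from all 13 groups, control arrays included. Supply genes were lower with DNMT1 siRNA added to siDNMT3A: in siD1+3A against siDNMT3A 24 genes were lower and 2 higher (5.29% and 4.32% of all genes, 9.62% together), with a median of -0.37. PCK2 had 7.18 and 7.21 in siD1+3A and 8.53 and 8.54 in siDNMT3A (-1.34 ± 0.09), followed by ALDH1L2 (-1.30 ± 0.07), SLC7A5 (-1.08 ± 0.07), SLC1A4 (-0.94 ± 0.10) and SLC7A11 (-0.85 ± 0.05). By class the genes called lower were 7 of 7 serine and one-carbon genes, 3 of 5 of other synthesis, 6 of 8 transporters and 7 of 17 synthetases. SLC38A1 (0.37 ± 0.09) and RARS1 (0.18 ± 0.05) were higher, but SLC38A1 was not called without siD1+3A replicate 2 (0.29) or either siDNMT3A array (0.37 and 0.36), and RARS1 not without any 1 of the 4 arrays (0.16 to 0.20).

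Adding DNMT1 siRNA to 3A+3B was compared on other arrays, on a background that also held DNMT3B siRNA. In siD1+3A+3B against 3A+3B 22 genes were lower and 0 higher (2.17% and 1.02% of all genes, 3.19% together), with a median of -0.25, and these 22 were all among the 24 lower in siD1+3A, where 1.35% of all genes were lower in both. PCK2 (-0.77 ± 0.09), SLC1A4 (-0.68 ± 0.10), ALDH1L2 (-0.58 ± 0.07), SLC7A5 (-0.56 ± 0.07) and CEBPB (-0.56 ± 0.06) differed most. Without siD1+3A+3B replicate 1 the count was 13, and with only the 2 groups in the fit 4. DNMT3B mRNA was also higher in siD1+3A+3B than in 3A+3B (0.25 ± 0.06, adjusted p = 0.0379), and its part in the result was not tested.

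With DNMT3L siRNA added, the direction was the same. In 3A+3B+3L against 3A+3B the groups differed in more than DNMT3L mRNA (-0.48 ± 0.12), as DNMT3B was higher (0.44 ± 0.06, adjusted p = 0.000152). The part of that DNMT3B difference in the result was not tested. In 3A+3L against siDNMT3A 26 genes were lower and 1 higher (6.04% and 4.07% of all genes, 10.1% together), and in 3A+3B+3L against 3A+3B 28 were lower and 1 higher (5.49% and 3.93%, 9.42% together). The 26 genes were lower in both, against 2.87% of all genes. These additions were set against the same siDNMT3A and 3A+3B arrays as the DNMT1 additions, so the DNMT1 and DNMT3L results are not independent. PCK2 differed by -1.36 ± 0.09 in the first and by -1.68 ± 0.09 in the second, SLC7A5 by -1.21 ± 0.07 and -1.16 ± 0.07, SLC1A4 by -1.16 ± 0.10 and -1.26 ± 0.10, ALDH1L2 by -1.08 ± 0.07 and -1.33 ± 0.07, and SLC7A11 by -0.85 ± 0.05 and -1.09 ± 0.05. The single higher genes, RARS1 in the first and KARS1 in the second, were not called without any 1 of the 4 arrays.

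Among the 9 additions, DNMT3A siRNA added to 3B+3L came with the largest median difference. These groups differed in more than the targeted mRNA: DNMT3A was lower in 3A+3B+3L (-0.30 ± 0.07), while DNMT3B (0.45 ± 0.06, adjusted p = 4.32e-05) and DNMT1 (0.19 ± 0.05) were higher. The part of these differences in the result was not tested. In 3A+3B+3L against 3B+3L 31 genes were lower and 0 higher (11.3% and 7.59% of all genes, 18.9% together), with a median of -0.62. PCK2 had 7.02 and 7.01 in 3A+3B+3L and 9.40 and 9.25 in 3B+3L (-2.31 ± 0.09, adjusted p = 3.64e-12), and ALDH1L2 (-1.81 ± 0.07), SLC1A4 (-1.60 ± 0.10), SLC7A5 (-1.52 ± 0.07) and CEBPB (-1.32 ± 0.06) followed. ASNS (-1.22 ± 0.07), PSAT1 (-1.01 ± 0.05), WARS1 (-0.67 ± 0.04) and PHGDH (-0.40 ± 0.05) were lower as well, whereas ATF4 stood at -0.01 ± 0.05. The synthetases called were 12 of 17, all lower, and QARS1, RARS1, KARS1, HARS1 and VARS1 were not among them.

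Adding DNMT3B siRNA to siDNMT3A or to 3A+3L gave no call among these genes. By limma 3A+3B against siDNMT3A called 0 of 39 (12 at an unadjusted p under 0.05, and 0.0923% of all genes called), and 3A+3B+3L against 3A+3L called 0 of 39 (4 at an unadjusted p, and 0.0977% of all genes). The standard errors were 0.04 to 0.10, and the differences of PCK2, the gene with the widest range, were 0.16 ± 0.09 and -0.16 ± 0.09. DNMT3B itself was lower in 3A+3B against siDNMT3A (-0.58 ± 0.06) but was not called in 3A+3B+3L against 3A+3L (-0.29 ± 0.06, adjusted p = 0.106).

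In the triple depletion with DNMT1 a subset was higher than in siD1+3A or siD1+3B. DNMT1 mRNA itself was higher in siD1+3A+3B than in siD1+3B (0.26 ± 0.05, adjusted p = 0.0155), and was not called against siD1+3A (0.09 ± 0.05). The part of this DNMT1 difference in the result was not tested. siD1+3A+3B against siD1+3A, which adds DNMT3B siRNA, had 7 genes higher and 0 lower (0.179% and 0.391% of all genes, 0.57% together): ALDH1L2 (0.91 ± 0.07), PCK2 (0.74 ± 0.09), SLC7A11 (0.57 ± 0.05), SLC1A4, SLC7A5, CTH and AARS1 (0.49, 0.36, 0.34 and 0.28), of which the last 4 were not called when most of the 4 arrays were left out 1 at a time. siD1+3A+3B against siD1+3B, which adds DNMT3A siRNA, had 13 higher and 0 lower (1.34% and 1.68%, 3.02% together), led by SLC7A5 (0.81 ± 0.07), PCK2 (0.73 ± 0.09), ALDH1L2 (0.67 ± 0.07), SLC7A11 (0.58 ± 0.05) and CTH (0.49 ± 0.06). These counts were 3 or 4 and 5 or 6 when any 1 of the 4 arrays was left out, and 2 and 3 with only the groups compared.

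**Figure D5:**
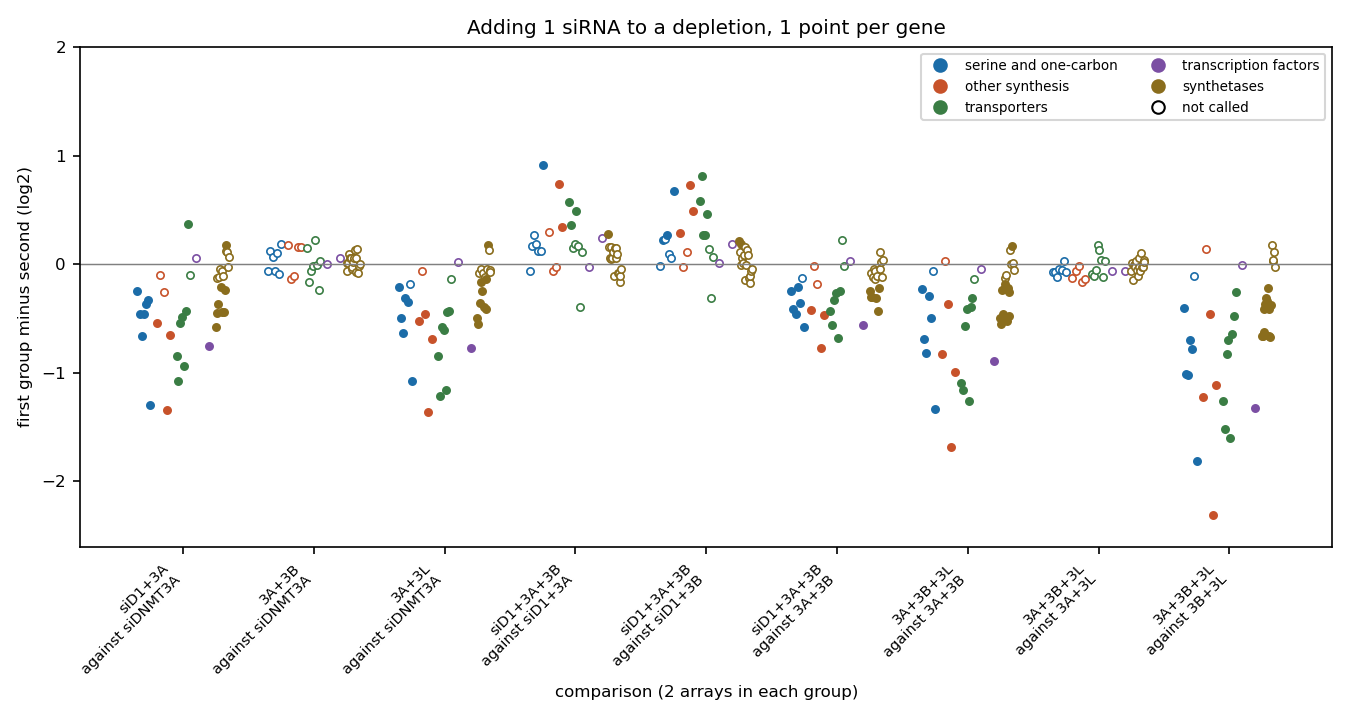
Log2 difference of each of the 39 genes (points, coloured by class and offset by class) in the 9 comparisons that add 1 siRNA (horizontal axis, first group minus second, 2 arrays each), with called genes filled. Points lie mostly below 0 where DNMT1 or DNMT3L siRNA was added to siDNMT3A or 3A+3B and where DNMT3A siRNA was added to 3B+3L, and are open and near 0 in 3A+3B against siDNMT3A and 3A+3B+3L against 3A+3L.

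The change seen with added DNMT1 siRNA on 3A+3B was then set against the change seen on siDNMT3A. The fall was smaller on 3A+3B for 3 genes (0.076% of all genes called): ALDH1L2 (difference of differences 0.72 ± 0.10, adjusted p = 0.00763), SLC7A5 (0.52 ± 0.09) and SLC7A11 (0.42 ± 0.06), with 12 at an unadjusted p under 0.05. When any 1 of the 8 arrays was left out the count was 0 or 1. For added DNMT3L siRNA limma called 0 of 39 (0.0326% of all genes, and 8 at an unadjusted p).

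The stress arm moved with the supply genes in the same comparisons. It was lower in 14 of 16 genes in siD1+3A against siDNMT3A, 14 in 3A+3L against siDNMT3A, 10 in siD1+3A+3B against 3A+3B, and 15 in both 3A+3B+3L against 3A+3B and 3A+3B+3L against 3B+3L, with medians of -0.53 to -1.45. CHAC1 had 9.67 and 9.76 in siD1+3A and 10.85 and 10.80 in siDNMT3A. Of 16 mitochondrial synthetases, limma called 0 in siD1+3A against siDNMT3A (6 at an unadjusted p under 0.05, and 9.62% of all genes called), 1 in 3A+3L against siDNMT3A (10.1%), 0 in siD1+3A+3B against 3A+3B (5 at an unadjusted p, and 3.19%), 2 in 3A+3B+3L against 3A+3B (9.42%) and 3 in 3A+3B+3L against 3B+3L (18.9%). These counts of few genes are near or below those shares and are no result about the list. Whether the amount of siRNA, the number of siRNAs in a mixture or the strength of each knockdown played a part in these differences was not tested.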

How the data were processed

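The authors deposited 1 table of log2 expression for 33297 array features and 26 arrays, 2 in each of 13 groups. Its scale is read from its values, which run from 3.04 to 14.87 with array medians of 6.28 to 6.33. Partek is named in the submitters' processing notes. The sources used here do not give the background correction, normalization or summarization. Every column belonged to a labelled sample.

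Features with exactly 1 gene symbol were kept (19460, whereas 1754 named several and 12083 none), and the feature with the highest mean stood for a gene, which gave 18417 genes. limma 3.58.1 in R 4.3.3 was fitted to 13 group means with moderated tests and Benjamini-Hochberg adjustment, after tests on simulated data. No count depth exists for arrays, so precision is limited by 2 arrays per group and 13 residual degrees of freedom.

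Alternatives were a filter on dim genes, quantile normalization, another variance prior, array weights, other rules for features, fewer groups, a replicate block and single arrays left out. The genes and lists were chosen with earlier results of these data known. ATF4, ASNS, PSAT1, PHGDH, PCK2, CEBPB, SLC7A11 and WARS1 are always described, with up to 5 called genes of the largest rise and fall in a comparison and those needed to describe a class. Same-numbered replicates did not deviate together: over 78 pairs of groups their deviations correlated at -0.26 to 0.19, and 9 pairs exceeded 0.1, so the numbers were not taken as pairs.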

Additional observations from a re-analysis of the deposited data

Results flagged for a closer look

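By a test of the difference itself, the change seen with added DNMT1 siRNA differed between 3A+3B and siDNMT3A for 3 of the 39 genes. DNMT3B mRNA was also higher in siD1+3A+3B than in 3A+3B (0.25 ± 0.06), and its part in the result was not tested. The difference of differences was 0.72 for ALDH1L2, 0.52 for SLC7A5 and 0.42 for SLC7A11, each a smaller fall on 3A+3B. When any 1 of the 8 arrays involved was left out, 0 or 1 of the genes was called.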

How the results depend on the processing

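All 39 genes passed the F test among the 13 groups under every alternative that could be run on it, except that without the 40% dimmest genes 38 of the 39 remained and all 38 passed. Counts of called genes moved most where the variance came only from the groups compared, which leaves few residual degrees of freedom. Against siNTC-1 they were then 11 for siDNMT1, 4 for siDNMT3B, 4 for siDNMT3L, 13 for siD1+3A, 13 for siD1+3B, 16 for siD1+3A+3B, 12 for 3A+3L and 11 for 3A+3B+3L. Beyond both controls they were 11 for siDNMT1, 4 for siDNMT3B, 4 for siDNMT3L, 6 for siD1+3A, 1 for siD1+3A+3B, 1 for 3B+3L and 4 for 3A+3B+3L. They were also 2 for 3B+3L against siNTC-2, 2, 3 and 4 for siD1+3A+3B against siD1+3A, siD1+3B and 3A+3B, and 0 for the difference of DNMT1 additions. Without the 40% dimmest genes 17 were called in 3B+3L against siNTC-2, 13 in siD1+3A+3B against siD1+3A, and 1 and 13 lay beyond both controls in siDNMT3A and 3A+3B+3L. Quantile normalization gave 15 in siD1+3A+3B against siD1+3A and 1 beyond both in siDNMT3A. A trended and robust prior gave 16 in 3B+3L against siNTC-2, 17 in siD1+3A+3B against siD1+3A, 5 and 1 for the differences of DNMT1 and DNMT3L additions, and 2, 10 and 15 beyond both in siDNMT3A, 3A+3L and 3A+3B+3L. Array weights gave 15 in siD1+3A+3B against siD1+3A, 5 for the difference of DNMT1 additions, and 1 and 3 beyond both in siDNMT3A and siD1+3A+3B. The mean of all features of a gene put 1 gene beyond both in siDNMT3A and turned 3 differences: SLC1A5 in siNTC-2 against siNTC-1 (-0.03), and ATF4 in siDNMT1 and siDNMT3L against siNTC-2 (0.06 and 0.08). Except where stated otherwise, the cause was not tested.

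With 1 array left out at a time, the count was 13 to 19 in siDNMT3L against siNTC-1, 5 to 7 in 3B+3L against siNTC-2, 3 to 4, 5 to 6 and 13 to 17 in siD1+3A+3B against siD1+3A, siD1+3B and 3A+3B, and 0 to 1 for the difference of DNMT1 additions. Beyond both controls it was 12 to 20 in siDNMT3L, 2 to 5 in siD1+3A+3B and 2 to 5 in 3B+3L. The replicate numbers were not taken as pairs, although low correlations cannot show that same-numbered arrays were handled apart. With the replicate number as a block, 34 genes were called in siNTC-2 against siNTC-1, 27 in siD1+3A against siDNMT3A and 2 for the difference of DNMT1 additions, and no count moved by more than 1.5 times.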
